A study of Mus musculus with 8 samples.

Results

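Genes of cartilage regulation and cartilage matrix were followed by their symbols, namely Sox5, Sox6, Sox9, Pth1r, Cytl1, Col2a1, Col27a1, Acan, Hapln1 and Matn3, which are 10 of the 16464 genes listed. The tissue was the posterior capsule of the knee of wild-type C57BL/6 mice, male and 10 weeks old, and its total RNA was sequenced. In the cast group the knee was fixed at an angle of 140 degrees in a cast for 2 weeks, beginning at 8 weeks of age (4 libraries), and the naive group is given no treatment (4 libraries). No transgene or drug is named for either group, and the labels do not say whether each library came from its own mouse, so p values here measure the spread between these libraries only. The comparison addresses what immobility does to gene expression in the capsule.

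In cartilage the transcription factor SOX9 works with SOX5 and SOX6, which lack an activation domain of their own and strengthen SOX9 at chondrocyte enhancers. Together they drive genes of the cartilage matrix, in which collagen II fibrils hold aggrecan bound to hyaluronan by link protein. Signals through the receptor for parathyroid hormone-related protein (PTHrP) keep chondrocytes from maturing to the hypertrophic state. A joint capsule is mainly fibrous tissue lined by synovium, and fibrocartilage can form where it is compressed or inserts into bone.

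The 10 genes did not move as a group. After casting 3 rose (Col27a1, Matn3 and Pth1r), 4 fell (Sox5, Sox6, Col2a1 and Cytl1) and 3 did not pass the test (Sox9, Acan and Hapln1), by limma with Benjamini-Hochberg adjusted p at most 0.05 over the whole table. Of the 15120 genes tested, 12.0% passed, 6.51% upward and 5.46% downward. In 7 of the 10 genes the cast and naive libraries did not overlap, against 20.5% of all genes tested. The 10 genes were chosen with earlier results of these data known, so these counts are no test of the group against the whole table. The median log2 fold change was 0.07 over the 10 genes and 0.07 over all genes. Matn3 passed the filter on low values (a mean of at least 0.5 over the 8 libraries) only through the cast group, so its difference was bound to appear, and its place in these counts supports nothing.

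**Figure D1:**
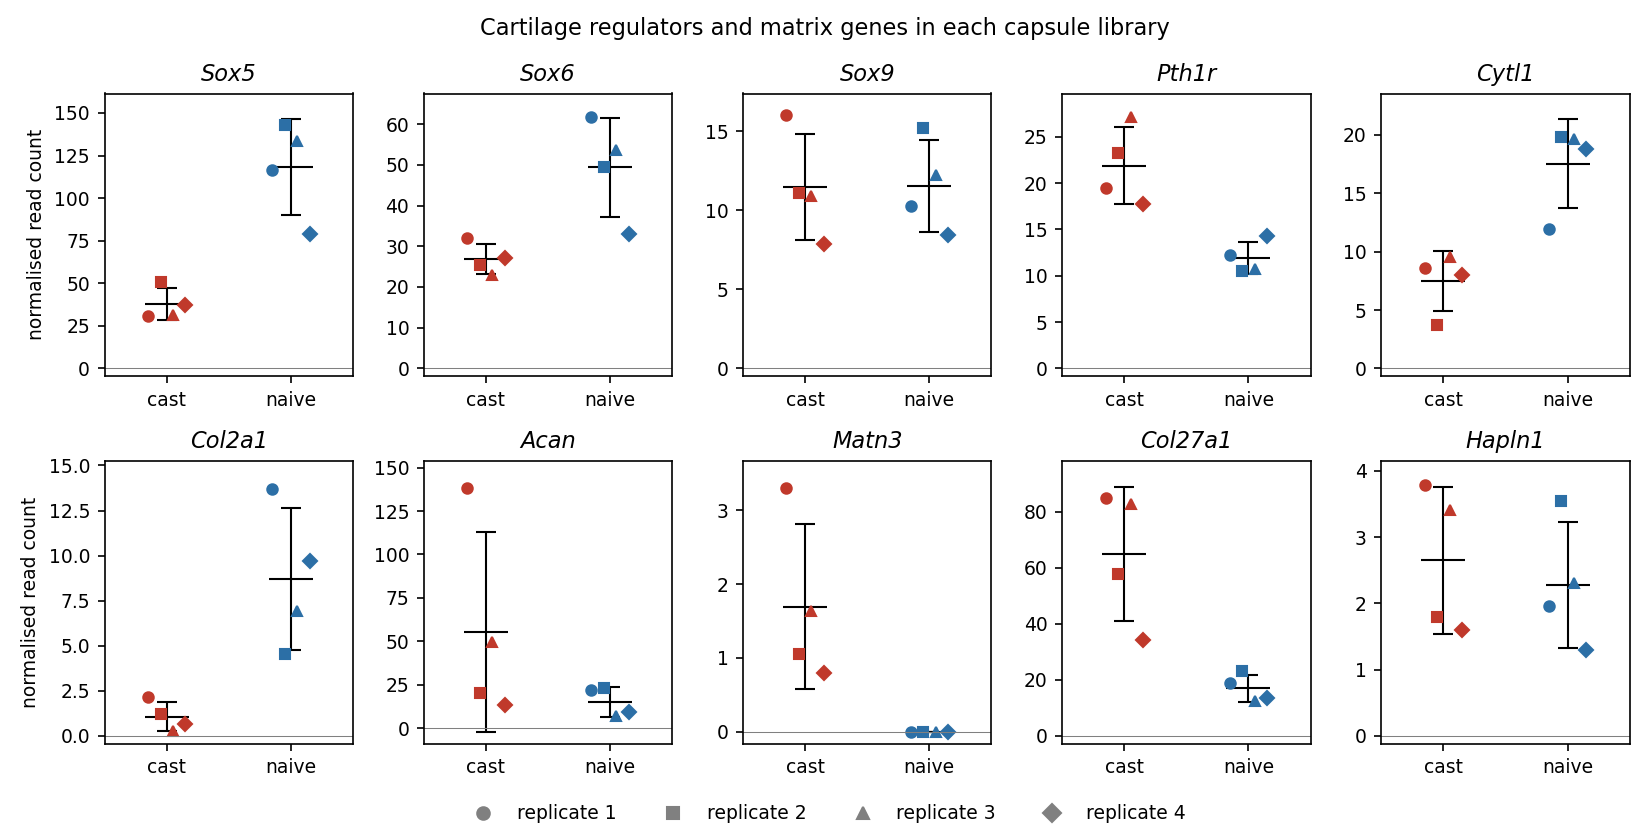
Normalised read count of each of the 10 genes (vertical axes, starting at or near 0 and differing between panels) in cast and naive capsules. Symbols mark the 4 libraries of each group, and black bars the mean ± SD. The groups are apart for 7 genes and overlap for Sox9, Acan and Hapln1, and Matn3 lies at 0 in all naive libraries.

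The libraries held 5956148 to 7381255 recovered reads in the cast group and 1503880 to 6805349 in the naive group, with naive replicate 4 the shallowest. Values below are deposited normalised read counts, in which 1 read is worth 0.133 to 0.165 in cast libraries and 0.151 to 0.647 in naive libraries. Fibroblast and synovial markers were abundant in both groups, with summed values of 26175 to 43929 in cast and 27622 to 46231 in naive libraries. Of these 10 markers 2 rose (Lum and Pdpn), 0 fell and 8 did not pass. Lum was at 1421 to 1976 in cast and 31.7 to 440 in naive libraries. It does not stand for the list, as the median log2 fold change of the 10 markers was -0.10, against 0.07 over all genes. Skeletal muscle markers differed, since 6 of 12 fell, none was at 0 throughout a group, and their sum was 16.3 to 390 in cast libraries. In naive libraries the muscle sum was 2276, 1584, 2806 and 116. Of 8 fat cell markers 4 fell, with sums of 1196 to 5779 in cast and 5133 to 9974 in naive libraries. Marrow granule genes were high in cast replicates 1 and 2 (sums of 97.9 and 262) and 8.18 and 12.5 in the other 2 cast libraries, against 3.64 to 12.3 in naive libraries. All 7 red cell genes rose, with sums of 3940 to 19837 in cast and 1174 to 1773 in naive libraries. The part of these cells in the results was not tested. Fits with a muscle covariate and without single libraries are given below as changes of processing only. The muscle sum was lower in every cast library than in naive replicates 1 to 3. The covariate thus largely follows the groups, and muscle level and casting cannot be told apart by it. In bulk tissue, fewer cells of a type and less RNA per cell cannot be told apart.

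The SOX genes split after casting: Sox5 and Sox6 fell, and Sox9 gave no call. Sox5 lies on chromosome 6 (143828425 to 144781977, minus strand, build GRCm38) and encodes a SOX factor of the D group. Cast replicates 1 to 4 held 30.8, 51.0, 31.2 and 37.2 of it, and naive replicates 1 to 4 held 117, 143, 134 and 78.9, the order used for all genes. Every cast library was below every naive library, and naive replicate 4 was the lowest of the naive group. The means were 37.6 ± 9.40 in cast and 118 ± 28.3 in naive capsules (SD, n = 4 each), a log2 fold change of -1.62 (SE 0.24, limma adjusted p = 0.00317). This call held in all 22 alternatives, with log2 fold changes of -1.80 to -1.35. With the muscle level as a covariate, the log2 fold change of Sox5 was -1.35 (limma adjusted p = 0.0254). Exons of Sox5 overlap those of the antisense gene Sox5os1, which was not analysed here, and reads of the pair cannot be told apart if strand was not used in counting. Sox5os3, a transcript antisense to Sox5 without exon overlap in GENCODE, was at 0.435 ± 0.162 in cast and 0.639 ± 0.527 in naive capsules (n = 4 each).

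Sox6, the partner of Sox5 (chromosome 7, 115470872 to 116038796, minus strand), had values of 32.0, 25.3, 23.0 and 27.2 in cast and 61.8, 49.4, 53.6 and 33.0 in naive libraries. The groups came close, as cast replicate 1 lay just under naive replicate 4. The means of Sox6 were 26.9 ± 3.79 in cast and 49.4 ± 12.1 in naive capsules (n = 4 each), and the log2 fold change was -0.83 (SE 0.22, limma adjusted p = 0.0358). With the muscle level as a covariate, the log2 fold change of Sox6 was -0.22 (limma adjusted p = 0.466). Sox6 also acts in skeletal muscle, where it represses slow fibre genes. The part of muscle in the Sox6 result was not tested, since muscle level and casting cannot be told apart here. The call of Sox6 was near the threshold. It was lost without cast replicates 2, 3 or 4 (limma adjusted p = 0.0927, 0.110 and 0.0719) and without naive replicates 1, 2 or 3 (0.0867, 0.0913 and 0.0987). In these 6 fits the log2 fold change was -0.84 to -0.71, close to that with all libraries. Without naive replicate 4 it had a log2 fold change of -1.01 (adjusted p = 0.00276).

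Sox9, the master regulator of chondrocytes (chromosome 11, 112782224 to 112787760, plus strand), had values of 16.0, 11.1, 10.9 and 7.87 in cast and 10.2, 15.2, 12.2 and 8.41 in naive libraries. The groups covered the same range. The means of Sox9 were 11.5 ± 3.36 in cast and 11.5 ± 2.89 in naive capsules (n = 4 each). Its log2 fold change was -0.02, with a 95% interval of -0.59 to 0.56 (limma adjusted p = 0.977). Per kilobase of exon, Sox5 stood at 0.555, 1.32, 0.823 and 1.36 times the level of Sox9 in the cast libraries, and at 3.28, 2.71, 3.14 and 2.70 times in the naive libraries. The ratio was thus lower in every cast library than in any naive library, given as a description without a test. Its absolute size depends on the lengths used, which join all annotated exons (14.376 kilobases for Sox5 and 4.135 for Sox9). Only its change between the groups can be read, not the balance of the pair. The same ratio for Sox6 was 0.558 to 0.964 in cast and 0.908 to 1.68 in naive libraries, ranges that overlap.

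Promoters of the 10 genes were read for ACAAT, the core of sites bound by SOX factors, to set the genes that fell beside those that rose. RefSeq (build GRCm38.p6) gave windows of 250 bases before to 50 after a start for 8 of the 10 genes, 15 windows in all, and none was printed for Sox9 or Col2a1. ACAAT or its reverse complement ATTGT, which do not overlap each other here, stood in 5 of these 15 windows. It stood in 31.0% of all 32851 windows of that length, so the share was near the background. Below are 1 window each of Sox5 and Sox6, which fell, and of Matn3 and Col27a1, which rose, on the strand of the gene, with matches in capitals. Those of Sox5, Sox6 and Col27a1 lie inside longer GENCODE gene spans, and that of Matn3 lies at the start of its span. The windows lie, in the order given, at chr6:143947057-143947356 (minus), chr7:115801560-115801859 (minus), chr12:8947679-8947978 (plus) and chr4:63215162-63215461 (plus).
Sox5: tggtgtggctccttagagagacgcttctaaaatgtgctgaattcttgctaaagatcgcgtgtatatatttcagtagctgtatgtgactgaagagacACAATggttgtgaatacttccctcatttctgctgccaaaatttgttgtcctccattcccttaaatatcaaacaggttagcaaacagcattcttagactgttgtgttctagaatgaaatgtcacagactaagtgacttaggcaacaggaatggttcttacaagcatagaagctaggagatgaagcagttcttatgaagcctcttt
Sox6: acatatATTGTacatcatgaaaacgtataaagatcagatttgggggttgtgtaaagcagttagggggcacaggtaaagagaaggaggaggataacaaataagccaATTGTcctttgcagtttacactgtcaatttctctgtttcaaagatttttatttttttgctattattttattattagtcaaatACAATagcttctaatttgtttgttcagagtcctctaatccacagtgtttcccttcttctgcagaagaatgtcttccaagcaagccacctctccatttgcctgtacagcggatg
Matn3: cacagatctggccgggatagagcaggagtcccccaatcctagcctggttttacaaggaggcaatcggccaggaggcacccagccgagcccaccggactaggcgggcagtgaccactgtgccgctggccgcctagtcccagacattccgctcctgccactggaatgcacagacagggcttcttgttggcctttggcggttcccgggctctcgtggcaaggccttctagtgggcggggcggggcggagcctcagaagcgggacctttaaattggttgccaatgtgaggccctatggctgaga
Col27a1: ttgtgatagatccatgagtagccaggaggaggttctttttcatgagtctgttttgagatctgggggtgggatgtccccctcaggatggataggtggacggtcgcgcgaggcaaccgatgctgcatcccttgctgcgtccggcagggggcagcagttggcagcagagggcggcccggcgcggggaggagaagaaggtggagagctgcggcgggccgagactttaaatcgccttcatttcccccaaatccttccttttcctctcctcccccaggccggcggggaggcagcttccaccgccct
The window of Sox5 held 1 match, and that of Sox6 held 3 and was the richest of its 6 windows, of which 3 had a match. Hapln1, which did not pass the test, had 1 match in its only window. The windows of Matn3 and Col27a1 held 0, as did those of Acan and Pth1r and that of Cytl1, which also fell. The printed windows are a selection, so they do not show that genes that fell hold the motif more often. Absence of these letters from a window near a start says nothing of distant enhancers.

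Pth1r, the receptor of parathyroid hormone and PTHrP, rose, and the gene of its ligand PTHrP fell. Pth1r (chromosome 9, 110722085 to 110747145, minus strand) had values of 19.4, 23.2, 27.1 and 17.7 in cast and 12.2, 10.5, 10.7 and 14.2 in naive libraries. All cast libraries were above all naive libraries. The means of Pth1r were 21.9 ± 4.18 in cast and 11.9 ± 1.72 in naive capsules (n = 4 each), with a log2 fold change of 0.82 (SE 0.20, limma adjusted p = 0.0276). That call was lost without cast replicates 2 or 3 (adjusted p = 0.0801 and 0.0942) and without naive replicates 1, 2 or 3 (0.0557, 0.0817 and 0.0801), with log2 fold changes of 0.71 to 0.83. It was also lost under quantile normalisation (adjusted p = 0.0586) and with the muscle covariate (log2 fold change 0.45, adjusted p = 0.231). Exons of Pth1r overlap those of Myl3, a muscle light chain gene on the other strand that was not analysed here, and whether counting used the strand is not given in the sources used here. Osteoblasts also use Pth1r, and the 7 osteoblast and osteocyte markers listed summed to 102 to 176 in cast and 25.2 to 148 in naive libraries, with 1 higher and 2 lower by the test. The part of these cells in the Pth1r result was not tested.

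Pthlh, which encodes PTHrP, was not among the 10 genes but belongs to the list of growth plate signals. Its values were 0.989, 1.499, 0.954 and 0.533 in cast and 6.48, 10.002, 9.09 and 11.6 in naive libraries. The groups were far apart, with means of 0.994 ± 0.395 in cast and 9.30 ± 2.16 in naive capsules (n = 4 each; log2 fold change -2.37, SE 0.25, limma adjusted p = 0.000599). Hhip, a decoy that binds hedgehog ligands and is itself a hedgehog target, fell to 5.04 ± 0.754 in cast capsules, against 43.0 ± 24.7 in naive capsules (log2 fold change -2.72, adjusted p = 0.00164). Of the 11 tested genes of this list 0 rose, these 2 fell and 9 did not pass, with a median log2 fold change of -0.31 against 0.07 over all genes. At an unadjusted p under 0.05, 0 were higher and 3 lower, and 0 rose by edgeR or DESeq2. The share of all genes at that unadjusted p is not given here, so such counts, here and below, only describe direction.

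Cytl1, a small secreted protein known from cartilage, fell. Cytl1 (chromosome 5, 37735519 to 37739820, plus strand) had values of 8.57, 3.75, 9.54 and 8.00 in cast and 11.9, 19.8, 19.7 and 18.8 in naive libraries. The groups did not overlap, and naive replicate 1 lay between the other naive libraries and the cast group. The means of Cytl1 were 7.47 ± 2.56 in cast and 17.5 ± 3.79 in naive capsules (n = 4 each), with a log2 fold change of -1.17 (SE 0.29, limma adjusted p = 0.0308). The call was lost without cast replicates 2, 3 or 4 (adjusted p = 0.0589, 0.0509 and 0.0557), without naive replicates 2 or 3 (0.0874 and 0.0854), with log2 fold changes of -1.29 to -0.91. It was also lost with the muscle covariate (log2 fold change -1.08, adjusted p = 0.111).

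The collagens of the group went opposite ways: Col2a1, the main fibrillar collagen of cartilage, fell, and Col27a1, a fibrillar collagen of cartilage and growth plate, rose. Col2a1 (chromosome 15, 97975602 to 98004695, minus strand) had values of 2.14, 1.20, 0.273 and 0.667 in cast and 13.7, 4.52, 6.94 and 9.70 in naive libraries. The highest cast library was below the lowest naive library. These are small numbers of reads, 28 in the cast and 176 in the naive group, for a collagen that cartilage makes in large amounts. The means of Col2a1 were 1.07 ± 0.809 in cast and 8.72 ± 3.95 in naive capsules (n = 4 each), and the log2 fold change was -2.22 (SE 0.37, limma adjusted p = 0.00573). It passed in all 22 alternatives. Its size depended on the pseudocount, since the log2 fold change was -1.14 with 5 in place of 1, and -3.02 by edgeR on recovered reads (adjusted p = 0.00606).

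Col27a1 (chromosome 4, 63214004 to 63334991, plus strand) had values of 84.7, 57.8, 82.6 and 34.1 in cast and 18.7, 23.1, 12.6 and 13.6 in naive libraries. Cast replicate 4 was the lowest of its group and still above every naive library. The means of Col27a1 were 64.8 ± 23.8 in cast and 17.0 ± 4.87 in naive capsules (n = 4 each), with a log2 fold change of 1.83 (SE 0.31, limma adjusted p = 0.00635). It passed in 21 of 22 alternatives, the exception being the fit without cast replicates 1 and 2, the libraries rich in marrow granule genes (log2 fold change 1.63, adjusted p = 0.0730). Per kilobase of exon, Col27a1 stood at 28.1, 34.2, 215 and 36.3 times the level of Col2a1 in cast libraries and at 0.967, 3.63, 1.28 and 0.994 times in naive libraries. The largest of these ratios rests on 2 reads of Col2a1 in cast replicate 3.

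Acan, the core protein of aggrecan, varied more among cast libraries than any other of the 10 genes and did not pass. Acan (chromosome 7, 79053483 to 79115099, plus strand) had values of 138, 20.5, 49.6 and 13.3 in cast and 22.0, 23.4, 6.78 and 9.06 in naive libraries. Cast replicates 1 and 3 were above all naive libraries, and cast replicates 2 and 4 were within the naive range. The means of Acan were 55.4 ± 57.3 in cast and 15.3 ± 8.60 in naive capsules (n = 4 each). The log2 fold change was 1.41, with a 95% interval of -0.10 to 2.92 (limma adjusted p = 0.220), and 0.79 without cast replicate 1 (adjusted p = 0.425). DESeq2 on recovered reads did call it (log2 fold change 1.85, adjusted p = 0.0336). Hapln1, the link protein that ties aggrecan to hyaluronan (chromosome 13, 89539796 to 89611652, plus strand), had values of 3.79, 1.80, 3.41 and 1.60 in cast and 1.96, 3.55, 2.31 and 1.29 in naive libraries. The groups of Hapln1 overlapped, with 72 reads in the cast and 51 in the naive group. Its log2 fold change was 0.15, with a 95% interval of -0.52 to 0.82 (limma adjusted p = 0.791). Acan and Hapln1 are made as a pair in cartilage, and per kilobase the ratio of Acan to Hapln1 was 28.8, 9.02, 11.5 and 6.58 in cast and 8.87, 5.21, 2.31 and 5.53 in naive libraries.

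Matn3, a matrilin that links filaments of the cartilage matrix, was seen in every cast library and in no naive library. Matn3 (chromosome 12, 8947929 to 8972028, plus strand) had 20, 7, 12 and 6 reads in the cast libraries, which are values of 3.30, 1.049, 1.64 and 0.800, and 0 reads in the 4 naive libraries. A count of 0 allows a value of up to 0.452, 0.484 and 0.496 in naive replicates 1 to 3 and up to 1.94 in naive replicate 4. The shallow naive replicate 4 could thus have held Matn3 at the level of 3 of the 4 cast libraries without a read. With the reads of each group pooled, 45 in cast, and the naive sum set to a floor of 3 reads, the ratio of cast to naive was 11.1. This figure allows for counting error in the naive reads only. It takes the cast reads as they stand, leaves out the spread between libraries, and is no support for a difference. Since Matn3 entered the fit through the cast libraries alone, its adjusted p (0.0157 by limma, and 0.0519 without cast replicate 3) adds nothing to these read counts. Without cast replicate 1 its mean was under the filter and it was not tested.

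**Figure D2:**
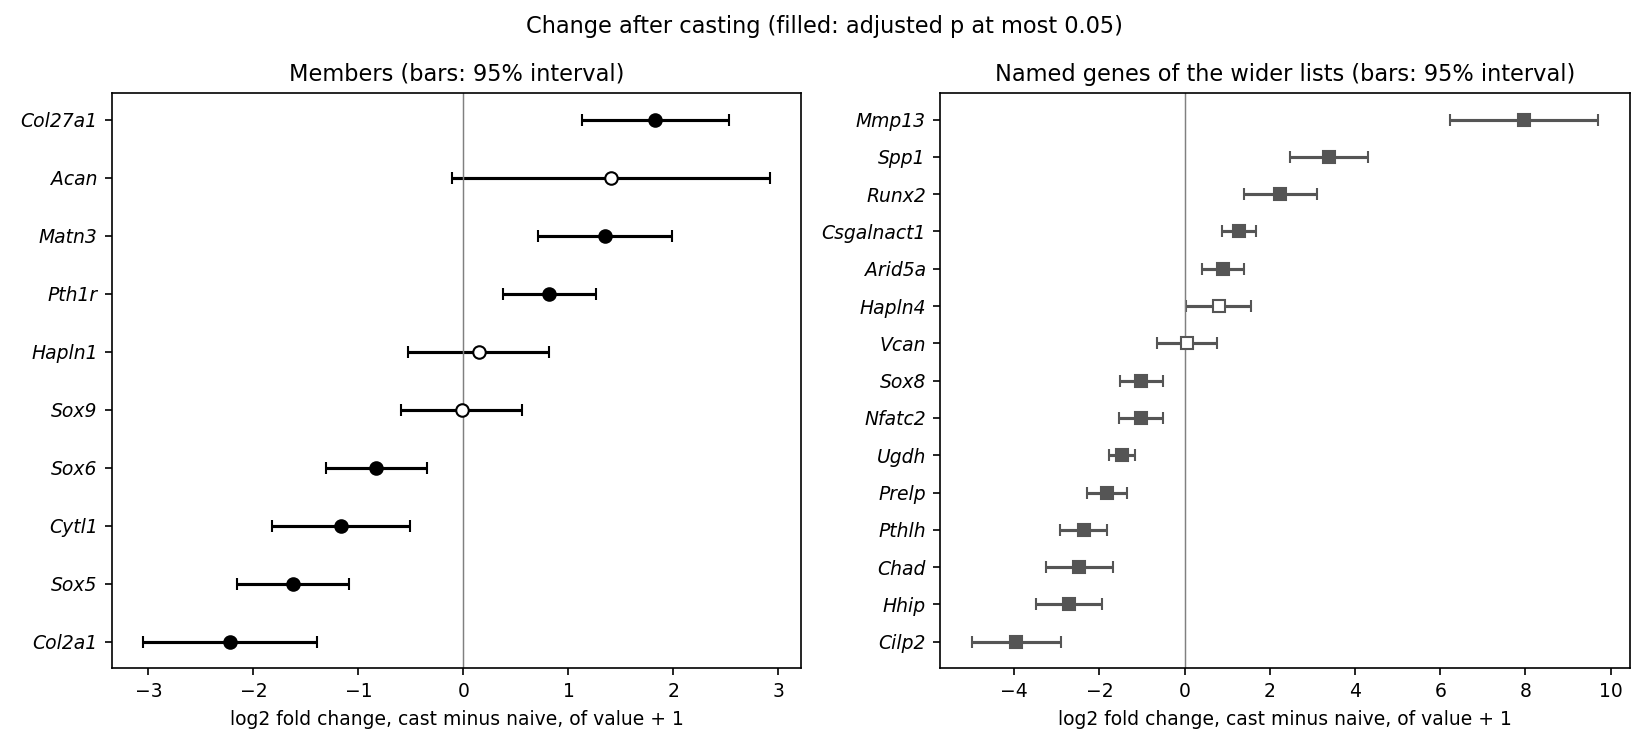
Log2 fold change of value + 1, cast minus naive (horizontal axes), of the 10 genes (left) and of the named genes of the wider cartilage lists (right), with 95% intervals from limma. Filled symbols had an adjusted p of at most 0.05. For Matn3 and Sox8 this is no support, as Matn3 passed the filter through the cast group only and Sox8 through the naive group only. Col2a1 (-2.22) and Col27a1 (1.83) mark the ends of the left panel, and Cilp2 (-3.95) and Mmp13 (7.97) those of the right.

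Levels of different genes were compared per kilobase of exon (GENCODE M21). The lengths join all annotated exons of a gene, so the order between genes depends on the annotation. In cast capsules the means ran from Pth1r (7.48 ± 1.43) over Acan (7.42 ± 7.68), Cytl1 (7.07 ± 2.42) and Col27a1 (4.98 ± 1.83) to Sox9 (2.77 ± 0.812), Sox5 (2.61 ± 0.654) and Sox6 (1.81 ± 0.256). Below these came Matn3 (0.563 ± 0.373), Hapln1 (0.449 ± 0.188) and Col2a1 (0.116 ± 0.0876). Neighbours in this order overlapped in range except Sox6 with Matn3 and Hapln1 with Col2a1. In naive capsules Cytl1 (16.6 ± 3.59) and Sox5 (8.21 ± 1.97) led, each apart from the next gene. Then came Pth1r (4.07 ± 0.587), Sox6 (3.33 ± 0.817), Sox9 (2.78 ± 0.699), Acan (2.05 ± 1.15), Col27a1 (1.30 ± 0.374), Col2a1 (0.943 ± 0.427) and Hapln1 (0.386 ± 0.160), all overlapping with their neighbours, and Matn3 at 0.

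**Figure D3:**
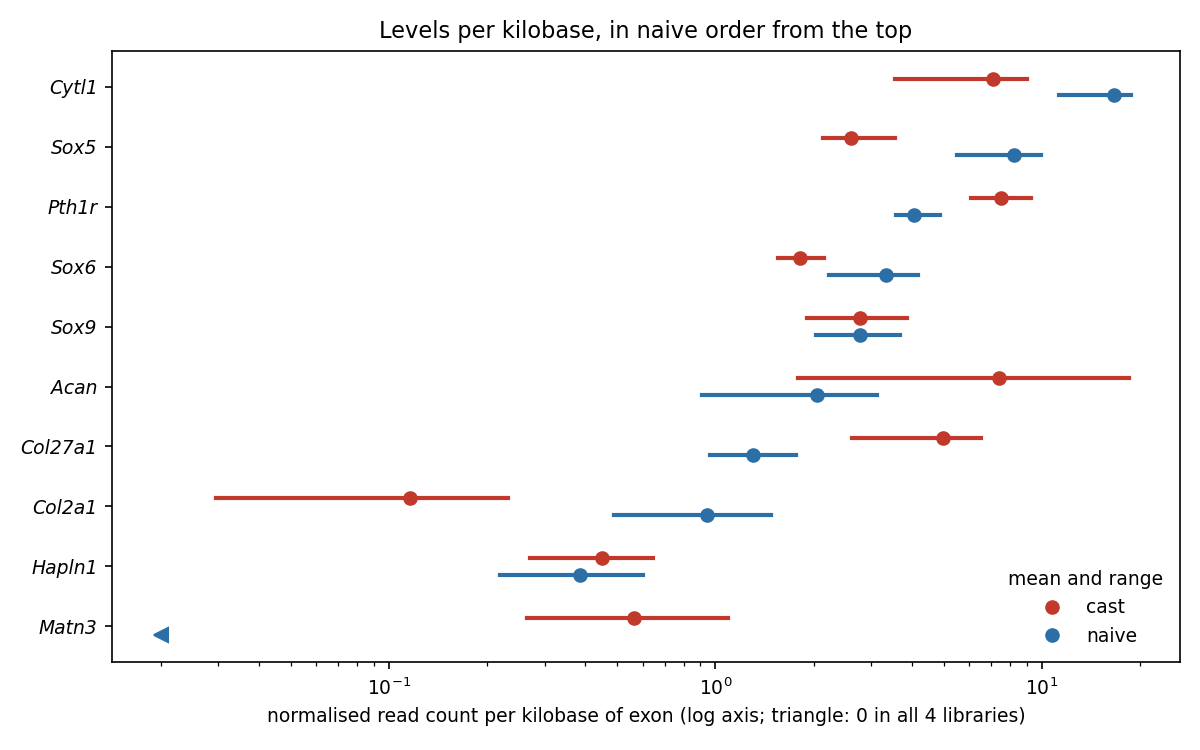
Normalised read count per kilobase of exon (log axis) of the 10 genes, ordered from the top by their naive mean. Points are means and lines the range of the 4 libraries of each group, and the triangle marks Matn3 at 0 in naive capsules. Sox9 overlaps almost wholly between the groups, and the range of Sox5 in cast capsules lies below its range in naive capsules.

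Other matrix genes of cartilage were lower or gave no call. Of 17 tested collagens and matrix proteins outside the 10 genes, 0 rose, 3 fell (Prelp, Cilp2 and Chad) and 14 did not pass, with a median log2 fold change of -0.47 against 0.07 over all genes. At an unadjusted p under 0.05, 1 was higher and 7 lower, and by edgeR 0 rose and 4 fell (by DESeq2 0 and 5). Of all 15120 genes, 1102 rose and 937 fell by edgeR, and 1464 rose and 1290 fell by DESeq2. Chad, chondroadherin, a leucine-rich protein that binds collagen II, had values of 11.04, 3.90, 5.32 and 4.27 in cast and 31.5, 26.3, 31.7 and 62.7 in naive libraries, a log2 fold change of -2.47 (limma adjusted p = 0.00283). Cilp2, cartilage intermediate layer protein 2, had values of 2.47, 1.20, 0.409 and 1.33 in cast and 92.1, 26.8, 25.5 and 20.1 in naive libraries, a log2 fold change of -3.95 (limma adjusted p = 0.00111). Neither gene overlapped between the groups. Prelp, a leucine-rich repeat protein of cartilage and other matrices, averaged 193 ± 43.6 in cast and 672 ± 87.1 in naive capsules (n = 4 each; log2 fold change -1.82, limma adjusted p = 0.00110).

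Relatives of aggrecan and link protein gave no call. Of 4 tested, 0 rose and 0 fell by limma at the adjusted threshold, as by edgeR and DESeq2, and 1 was higher at an unadjusted p under 0.05. Versican (Vcan), the large proteoglycan of loose connective tissue, averaged 441 ± 101 in cast and 447 ± 170 in naive capsules (n = 4 each; limma adjusted p = 0.937). Hapln4 had 38 reads in the cast and 5 in the naive group (limma adjusted p = 0.174).

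Among genes that build sulphated glycosaminoglycan chains, 1 of 24 rose, 1 fell and 22 did not pass, with a median of -0.16. Csgalnact1, which starts chondroitin sulphate chains, had values of 50.4, 52.9, 72.1 and 56.7 in cast and 25.6, 19.5, 22.0 and 26.5 in naive libraries (log2 fold change 1.27, limma adjusted p = 0.00277). Ugdh, which makes the sugar nucleotide for these chains and for hyaluronan, had values of 106, 102, 92.0 and 92.3 in cast and 288, 277, 270.3 and 259 in naive libraries (log2 fold change -1.47, limma adjusted p = 0.000372). The groups were apart for both enzymes, in opposite directions.

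Of 16 tested chondrogenic transcription factors outside the SOX trio, Arid5a rose, Sox8 and Nfatc2 fell and 13 did not pass (median -0.07). Sox8, the close relative of Sox9, fell to 0.430 ± 0.263 in cast capsules, against 1.88 ± 0.473 in naive capsules (12 and 35 reads; log2 fold change -1.01, limma adjusted p = 0.0202). Sox8 reached the filter on low values only through the naive group, so its call adds nothing to these values, and its place in the counts supports nothing. Its adjusted p was 0.0676 once cast replicate 3 was left out, and 0.0925 in the fit lacking cast replicates 1 and 2. Nfatc2 averaged 52.2 ± 13.2 in cast and 107 ± 26.8 in naive capsules (log2 fold change -1.02, limma adjusted p = 0.0206). It no longer passed without cast replicates 2, 3 or 4 (adjusted p = 0.0530, 0.0668 and 0.0505; log2 fold changes of -1.03 to -0.89). Arid5a, an RNA-binding protein that can assist SOX9, averaged 53.5 ± 4.17 in cast and 29.0 ± 9.50 in naive capsules (log2 fold change 0.91, limma adjusted p = 0.0264). The call of Arid5a was lost with any library but naive replicate 4 left out (adjusted p = 0.0557 to 0.0783; log2 fold changes of 0.78 to 0.94) and with the muscle covariate (adjusted p = 0.211).

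Of 12 tested genes of hypertrophic and mineralising chondrocytes, which bone cells, macrophages and activated stroma also use, 4 rose (Mmp13, Spp1, Runx2 and Ibsp), 0 fell and 8 did not pass (median 0.31). At an unadjusted p under 0.05 1 was lower, and 0 fell by edgeR and 1 by DESeq2. Runx2, which drives hypertrophy and bone formation, had values of 50.6, 27.1, 31.5 and 13.3 in cast and 5.27, 7.58, 4.79 and 3.23 in naive libraries, a log2 fold change of 2.25 (limma adjusted p = 0.00595). Every cast library was above every naive library. Without cast replicates 1 and 2, Runx2 had a log2 fold change of 1.84 (adjusted p = 0.0583). Col10a1, the collagen that defines hypertrophic chondrocytes, did not follow, with values of 16.0, 13.2, 7.36 and 8.80 in cast and 8.89, 19.5, 8.60 and 3.88 in naive libraries, which overlap.

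Profiles over the 8 libraries were compared by the root-mean-square distance between centred log2 values, over 11349 genes with a mean of at least 5. Closest to Acan were Adam12 (distance 0.167), Sertad4 (0.418) and Postn (0.444), genes in which cast replicate 1 was also the highest library. Adam12 had values of 230, 49.3, 110 and 34.0 in cast and 47.6, 44.5, 14.7 and 20.7 in naive libraries, so that its order among cast libraries was that of Acan. Postn, periostin, reached 3650 in cast replicate 1, against 238 to 702 in the other cast libraries and 169 to 559 in naive libraries. Closest to Sox9 were Tmtc2 (0.105), Kdm5b (0.120) and Smarca2 (0.125), whose groups overlapped. Closest to Col2a1 were Pck1 (0.411), Prelp (0.430) and Ngef (0.442), which were lower in every cast library than in any naive library. All these genes were picked for their likeness over the same libraries, so the patterns they share with Acan, Sox9 and Col2a1 follow from the choice.

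**Figure D4:**
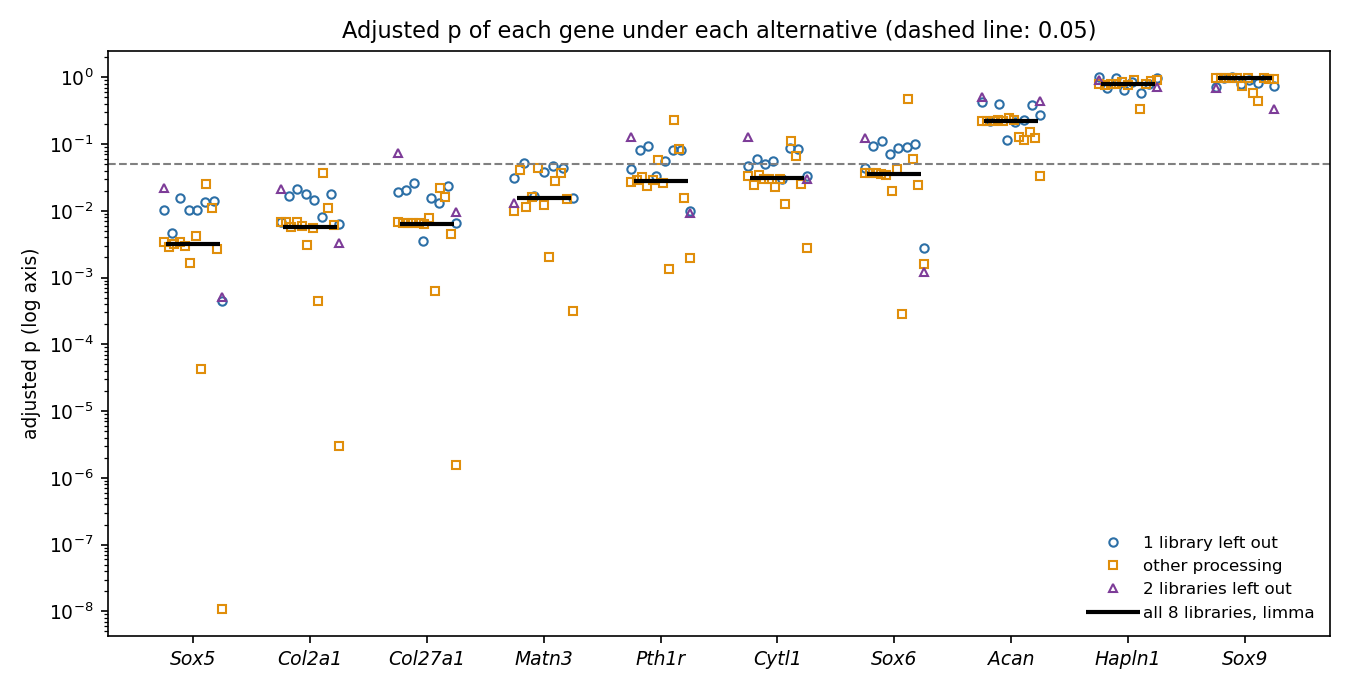
Adjusted p (log axis) of the 10 genes under each alternative, with all 8 libraries by limma as a black bar, fits without 1 library as circles, other processing as squares and fits without 2 libraries as triangles. Sox5 and Col2a1 stay below the dashed line at 0.05 throughout, Sox6, Pth1r and Cytl1 lie on either side of it, and Sox9 and Hapln1 stay above it.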

How the data were processed

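Per the labels' protocols, RNA was extracted with Trizol, and strand-specific libraries were built from 200 ng after ribosomal RNA depletion and read as pairs of 150 nt. The extract protocol names Trimmomatic 0.38 and the human build hg38, whereas in the submitters' processing notes the build is mouse mm10 and the tools are edgeR, RSEM, Bowtie2 and Trimmomatic 0.36. The symbols in the table are mouse symbols. For other versions, and for the use of strand in counting, the entry is: not given in the sources used here. For every gene in each library the authors deposited 1 signal value, namely its normalised read count. All values were whole multiples, within 0.01, of the value of 1 read, which gave recovered reads. The smallest sum of a listed gene was 8 reads.

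Values were taken to log2 after adding 1, genes under a mean of 0.5 were left out, and cast was compared with naive by limma-trend, adjusting over all 15120 genes. Fold changes are cast minus naive and understate the change of low genes. Exon lengths and coordinates came from GENCODE M21 (GRCm38). The 10 genes, lists and tests were chosen with earlier results of these data known. Named genes were the 10, up to 3 per direction and list by smallest p (of a list without calls the 2 most abundant), and the 3 nearest profiles of Sox9, Acan and Col2a1. Sox5os3 and Col10a1 were named outside this rule, after their values were seen. Values of Lum, a cell type marker, were also given outside this rule. The limma fit was tested on simulated counts, in which 200 of 15120 genes were changed. It called 13% of the 2-fold and 70% of the 4-fold changes, and 6 of 14920 unchanged genes. A gene that did not pass may therefore still have changed. Fits used limma 3.58.1, DESeq2 1.42.0 and edgeR 4.0.16 under R 4.3.3, and summaries and figures used numpy 2.4.6, pandas 2.3.3 and matplotlib 3.10.9 under Python 3.11.15. Alternatives are listed in the closing section. Limits for counts of 0 cover counting error only.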

Additional observations from a re-analysis of the deposited data

Results flagged for a closer look

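The value of Cytl1 in naive replicate 1, 11.9, stood apart from the other naive libraries, which were at 19.8, 19.7 and 18.8. The value of Sox8 in naive replicate 4, 2.59, stood apart from naive replicates 1 to 3, at 1.66, 1.61 and 1.65, and rests on few reads in the shallowest library. In both cases the gap to the nearest library, on the log2 scale, took a larger share of the range of the group (0.889 for Cytl1 and 0.947 for Sox8) than Dixon's 95% critical value. Of 49 groups of 4 libraries examined in this way 2 stood out, and chance gives about 1 in 20.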

How the results depend on the processing

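Of 22 alternatives, 2 were chosen after seeing the data: without cast replicates 1 and 2, and without naive replicate 4 and cast replicate 1. The others were pseudocounts of 0.5 and 5, no filter, a filter at a mean of 2.5, median-of-ratios scaling, quantile normalisation, no trend, array weights, a muscle covariate, a replicate block, edgeR and DESeq2 on recovered reads, and each library left out. Of the 10 genes 7 passed with all libraries, 3 to 7 with 1 library left out, 4 with the muscle covariate and 2 without cast replicates 1 and 2 (Sox5 and Col2a1). Deviations from the group means correlated at -0.057 to 0.080 between same-numbered libraries and at -0.234 to 0.234 between the others. With 4 libraries per group these values cannot settle whether the numbers mark a pairing. With the replicate block 1371 genes changed in all and 4 of the 10 passed, and Sox6, Pth1r, Cytl1, Nfatc2 and Arid5a were lost (adjusted p = 0.0600, 0.0842, 0.0662, 0.0553 and 0.0516). Genes changed over the whole table numbered 1810, and 916 to 2665 with 1 library left out, 3985 with array weights, 3835 with the muscle covariate, 2754 by DESeq2, 2039 by edgeR, 717 without cast replicates 1 and 2 and 3278 without naive replicate 4 and cast replicate 1. Quantile normalisation gave 807 higher and 995 lower genes, against 984 and 826. Genes of the wider lists past the threshold numbered 14, and 10 to 20 with 1 library left out, 29 with array weights and 26 without naive replicate 4 and cast replicate 1. Signs changed for genes that never passed: Sox9 with the muscle covariate (0.39) and from -0.18 to 0.14 with 1 library left out (-0.30 without naive replicate 4 and cast replicate 1), Hapln1 under quantile normalisation (-0.10), without naive replicate 4 and cast replicate 1 (-0.16) and from -0.01 to 0.32 with 1 library left out. Vcan was at -0.11 with array weights, -0.021 by edgeR, -0.027 by DESeq2, -0.23 without naive replicate 4 and cast replicate 1, and from -0.24 to 0.24 with 1 library left out. The cause of these shifts was not tested. The 1503880 reads of naive replicate 4 limit what can be said of Matn3, Hapln1 and Sox8.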
